A study of Mus musculus with 10 samples.

Results

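The genes described here are 10 transcripts of the circadian clock, Arntl, Clock, Npas2, Per1, Per2, Cry1, Nr1d1, Nr1d2, Dbp and Ciart. They were picked by gene symbol from the 15883 genes of the count table, in which all 10 are present. The biceps femoris, which lies in the hindlimb, gave the RNA, from 5 mice that carry a Zfp407 transgene and 5 wild-type mice. All were males of the C57BL/6J strain, aged 5 weeks, kept on chow and fasted for 16 hours. Zfp407 encodes a zinc finger protein, and the comparison asks which muscle transcripts differ when it is overexpressed. The promoter of the transgene, the number of founder lines and the clock time of tissue collection were details not given in the sources used here. Column names show a library's group without naming its mouse, and libraries are therefore numbered by column within each group.

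The clock is a feedback loop of transcription. The proteins of Arntl (BMAL1) and Clock, or its paralogue Npas2, bind E-box sequences as a dimer and activate the Per and Cry genes, whose proteins return to the nucleus and repress that dimer. A further loop runs through Nr1d1 and Nr1d2, the nuclear receptors REV-ERB alpha and beta, which are activated by the same dimer and repress Arntl, Npas2 and Clock through elements shared with the ROR activators. Dbp encodes an output factor of the PAR bZIP family that acts on D-box sequences, and Ciart (CHRONO) encodes a repressor that binds BMAL1. In skeletal muscle the clock is known to time genes of glucose uptake, lipid use and contraction. Because each transcript cycles over the day, its level in 1 sample depends on the hour of sampling.

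CPM, the unit of level used here, is a gene's count per 1000000 counts of its library, with library totals scaled by TMM, a factor that evens out composition. Total counts ran from 15162400 to 19047834 per transgenic library and from 13530367 to 17814900 per wild-type library. Zfp407 stood at 317 to 616 CPM in transgenic libraries and at no more than 25.7 CPM in any wild-type library, as the labels require. Summed transcripts of 8 skeletal muscle fibre genes such as Ckm, Acta1 and Myh4 ran from 76911 to 111276 CPM in transgenic libraries and from 81688 to 108815 CPM in wild-type libraries. The sum of 6 slow fibre genes varied more, from 111 to 566 CPM in transgenic libraries and from 43.5 to 1135 CPM in wild-type libraries. All 10 hepatocyte markers on the list used here were higher in the transgenic group, with a sum of 270 to 4012 CPM in transgenic libraries, the highest in library 5, and of 59.2 to 159 CPM in wild-type libraries. All 5 leukocyte markers tested, of 8 listed, lay above 0 in log2 fold change, and 1 of them, Cd74, was called. Their sum ran from 122 to 306 CPM in transgenic libraries and from 96.2 to 184 CPM in wild-type libraries. Rows that resemble ribosomal RNA took 9.62% to 17.3% of counts in transgenic libraries and 14.3% to 33.9% in wild-type libraries. Transgenic library 3 and wild-type library 5 stood apart in another way. Across 13308 genes, the deviation of a gene from the other libraries correlated with its exon length with a Spearman rho of -0.244 in transgenic library 3 and 0.246 in wild-type library 5, and with a rho between -0.018 and 0.0665 in the other 8 libraries.

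Ciart was the 1 member called, and its level was higher in the transgenic group. Of the 10 members, 1 passed an adjusted p of 0.05 in edgeR's quasi-likelihood test, where 5.33% of the 13338 genes tested did. Higher calls made up 4.28% of genes tested and lower calls 1.05%. The members had log2 fold changes of transgenic over wild type from -0.43 for Cry1 to 0.86 for Ciart, with a median of -0.04, against a median of 0.003 over all genes tested. Of the members 5 lay above 0 and 5 below, and 2 had an unadjusted p under 0.05, Ciart and Cry1, where 18.1% of genes tested did. With 10 members, a share of 1 in 10 is near that background. The authors' deposited table likewise calls 1 of the 10 members, Ciart, where it calls 7.29% of its 15883 genes.

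**Figure D1:**
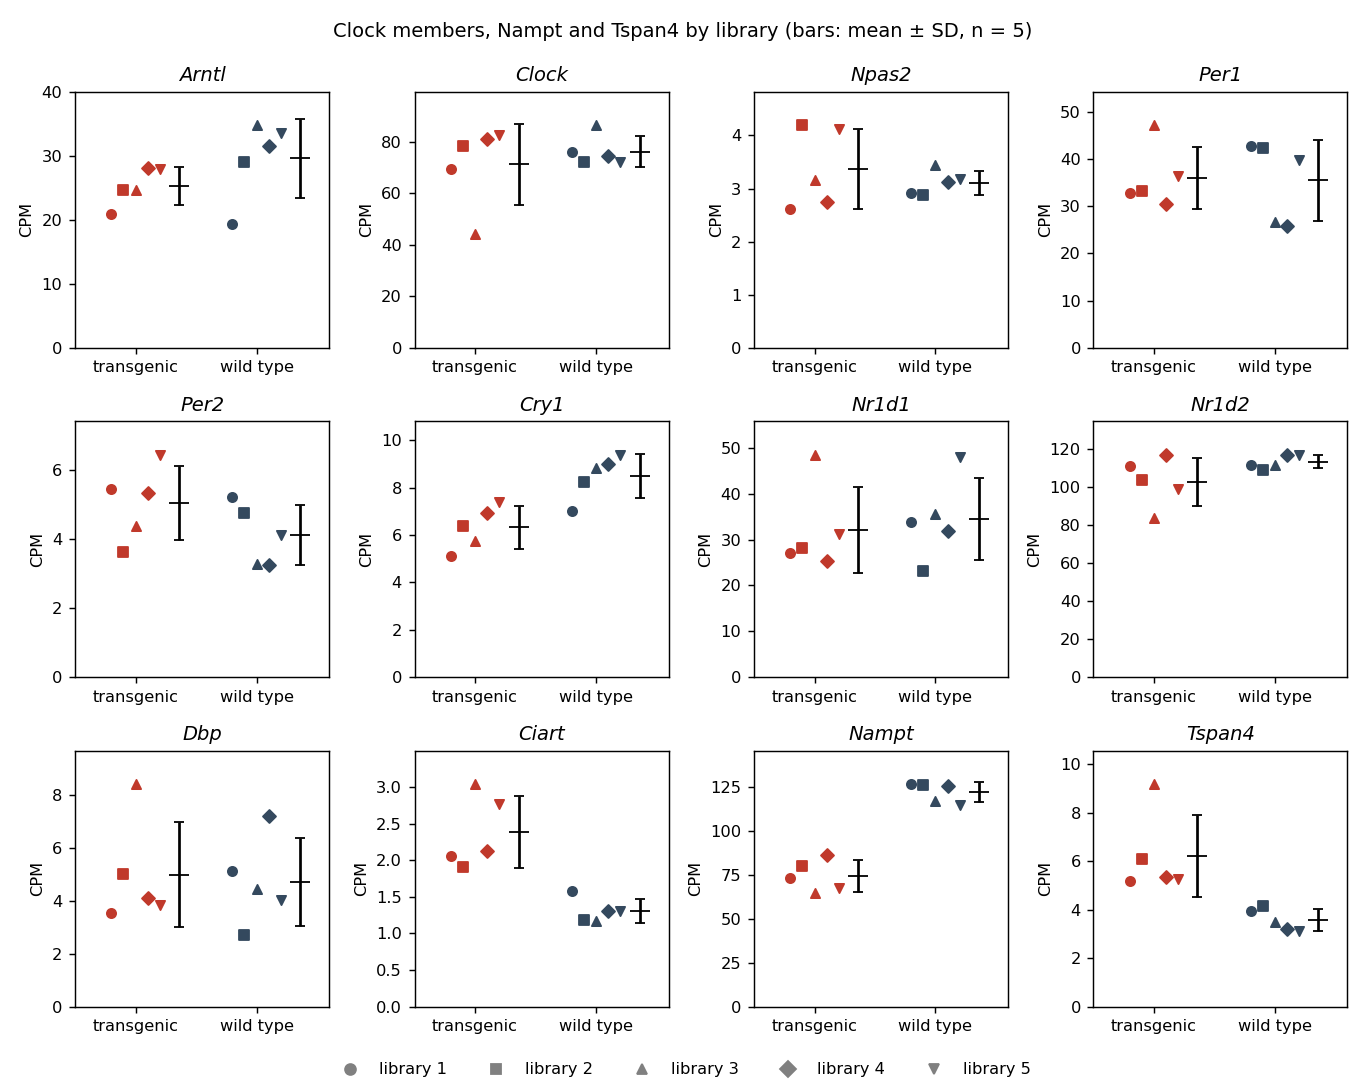
Level of each member and of the output genes Nampt and Tspan4 in CPM (vertical axis, from 0) in the 5 transgenic libraries (left, red) and the 5 wild-type libraries (right, dark), with the marker shape giving the column number and the bar the mean ± SD. The groups are separate for Ciart, Nampt and Tspan4, nearly separate for Cry1 and mixed for the other 8 genes.

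Ciart lies on chromosome 3 from 95878503 to 95882251 on the minus strand (GRCm38). Its level was 2.06, 1.91, 3.04, 2.13 and 2.77 CPM in transgenic libraries 1 to 5. In wild-type libraries 1 to 5 it was 1.58, 1.19, 1.17, 1.30 and 1.30 CPM. Every transgenic library lay above every wild-type library, a separation found in 8.04% of genes tested. On the log2 scale the difference was 0.86 ± 0.20 (SE), or 1.81-fold with a 95% interval of 1.34 to 2.46, at an edgeR adjusted p of 0.0259. An exact two-sided permutation test over 252 assignments of libraries to groups put its p at 0.00794, which is the lower limit of that test. The gene is sparse, with 37 to 48 reads per transgenic library and 14 to 21 per wild-type library. The authors' deposited table gives Ciart a log2 fold change of 0.86 and an adjusted p of 0.0231.

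The direction of Ciart held in all 25 alternatives, and the call in 15 of them. The alternatives at an adjusted p of 0.1 and of 0.01 read the main fit at another threshold. Their direction could not differ, and the call at 0.1 was bound to hold. Leaving out wild-type library 2, 3, 4 or 5, or number 5 of the transgenic ones, 1 at a time ended the call (adjusted p in edgeR from 0.0636 to 0.0934). So did leaving out transgenic libraries 4 and 5 (0.110) or transgenic library 3 with wild-type library 5 (0.0643). With the hepatocyte marker level in the model the adjusted p was 0.430 in edgeR, at a log2 value of 0.72 ± 0.34 (SE). Hepatocyte transcripts were higher in the same libraries. Ciart was highest in transgenic library 3, where the hepatocyte sum was 344 CPM, and second highest in transgenic library 5, where it was 4012 CPM. The leukocyte sum was 200 CPM in transgenic library 3 and 122 CPM, the lowest of its group, in transgenic library 5. Without the rows that resemble ribosomal RNA, Ciart had a log2 value of 0.83 and an adjusted p of 0.0340 in edgeR. All 10 hepatocyte markers separated the groups without overlap. The fit with their level in the model therefore cannot tell the part of hepatocyte transcripts from that of genotype. Neither that part nor the part of leukocyte transcripts was tested. Ciart has the shortest exonic length of the members, 2261 bases. It was highest in transgenic library 3, where deviation correlated with exon length at a rho of -0.244. With transgenic library 3 left out, Ciart stood at a log2 fold change of 0.76 ± 0.19 (SE) at an adjusted p of 0.0324 in edgeR. The part of exon length in the level of Ciart was not tested. In RNA of whole muscle, a change in the number of cells of a type and a change in RNA per cell cannot be told apart.

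Among the 9 members with a start window, Ciart has the most E-boxes, and its sequence is shown for that reason. The RefSeq window (GRCm38.p6) covers 250 bases before to 50 bases after the start, at chr3:95882179-95882478, and is written 5′ to 3′ on the minus strand with CACGTG in capitals.
Ciart: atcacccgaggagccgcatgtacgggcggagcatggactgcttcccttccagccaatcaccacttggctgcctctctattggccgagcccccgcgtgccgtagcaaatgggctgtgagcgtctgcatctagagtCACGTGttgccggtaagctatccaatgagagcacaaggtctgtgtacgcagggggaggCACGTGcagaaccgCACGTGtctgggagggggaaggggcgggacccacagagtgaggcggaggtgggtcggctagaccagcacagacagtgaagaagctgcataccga
The letters CACGTG, which read alike on both strands, begin at -116, -58 and -44 from the start. Among 32851 windows of the same length, 7.15% hold at least 1 such match and 0.0883%, or 29 windows, hold 3 or more. Windows were found for 9 of the 10 members, all but Per2. The other motifs searched on both strands were CACGTT for a variant E-box, TTATGTAA and TTACGTAA for the D-box, TAGGTCA and TGGGTCA for the ROR element and TGACGTCA for the cAMP response element. They occurred in 4.68%, 1.06%, 6.45% and 1.79% of all windows in that order, and no motif overlaps another in the members. A match describes letters, not binding.

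A non-coding gene, C920021L13Rik, runs through the Ciart locus on the opposite strand, with no exonic base in common with Ciart. It had a mean of 0.348 CPM in the transgenic group and 0.833 CPM in wild type, with a log2 fold change of -1.24 ± 0.50 (SE) at an adjusted p of 0.205 in edgeR. Its value lies in the opposite direction from that of Ciart and did not pass.

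Cry1 and Arntl, a repressor and an activator of the loop, varied together from library to library. Cry1 lies on chromosome 10 from 85131700 to 85185064 on the minus strand and stood at 5.12, 6.38, 5.76, 6.95 and 7.40 CPM in transgenic libraries 1 to 5. Wild-type libraries 1 to 5 held 7.01, 8.22, 8.82, 8.98 and 9.39 CPM. The ranges met only where transgenic library 5 exceeded wild-type library 1. The log2 fold change of Cry1 was -0.43 ± 0.13 (SE) with a 95% interval of -0.72 to -0.13. Its edgeR adjusted p of 0.0955 missed the threshold, while the exact two-sided permutation test gave p = 0.0159 before any correction. The authors' deposited table gives Cry1 an adjusted p of 0.0645. Over all alternatives the adjusted p of Cry1 ran from 0.0592 to 0.275, and its direction held in each of the 25. Those that read the main fit at another threshold could not change it.

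Arntl, which lies on chromosome 7 from 113207465 to 113314126, stood at 20.9, 24.7, 24.6, 28.1 and 28.0 CPM in transgenic libraries 1 to 5. In wild-type libraries 1 to 5 its level was 19.3, 29.1, 34.8, 31.5 and 33.6 CPM. Of the wild-type libraries, number 1 lay below all transgenic libraries and the other 4 lay above them. Arntl had a log2 fold change of -0.23 ± 0.15 (SE), with a 95% interval of -0.56 to 0.10 (edgeR adjusted p = 0.476). Without wild-type library 1 it was -0.39, with an edgeR adjusted p of 0.103.

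With group means removed, the log2 CPM of Arntl and Cry1 over the 10 libraries had a Pearson r of 0.87 (exact two-sided permutation within groups p = 0.00104, adjusted p = 0.0469 over 45 pairs of members). Spearman's rho was 0.82 (exact permutation p = 0.00493, adjusted p = 0.222). Without wild-type library 1 and transgenic library 1, which lie farthest from the median of Arntl, r was 0.71, and leaving out any 1 library gave values from 0.85 to 0.90. The pair fell short of the adjusted threshold with RLE in place of TMM scaling and without most single libraries. In each group the library lowest in Arntl and Cry1, number 1, was the highest in fat cell transcripts. The sum of 6 adipocyte markers, Adipoq and Plin1 among them, was 1606, 1150, 579, 587 and 884 CPM in transgenic libraries 1 to 5 and 1959, 1251, 793, 655 and 507 CPM in wild-type libraries 1 to 5, and its part in the correlation was not tested.

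The start regions of Cry1 and Arntl are shown because these members varied together. The Cry1 window lies at chr10:85185005-85185304, minus strand, and the Arntl window at chr7:113207261-113207560, plus strand, both in GRCm38.p6 and 5′ to 3′, with motif matches in capitals.
Cry1: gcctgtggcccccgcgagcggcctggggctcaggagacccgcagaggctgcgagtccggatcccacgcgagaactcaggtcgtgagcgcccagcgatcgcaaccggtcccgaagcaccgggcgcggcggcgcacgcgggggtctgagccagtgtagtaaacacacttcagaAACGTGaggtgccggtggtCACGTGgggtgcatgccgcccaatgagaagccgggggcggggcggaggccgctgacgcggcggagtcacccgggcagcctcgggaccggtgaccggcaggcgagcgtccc
Arntl: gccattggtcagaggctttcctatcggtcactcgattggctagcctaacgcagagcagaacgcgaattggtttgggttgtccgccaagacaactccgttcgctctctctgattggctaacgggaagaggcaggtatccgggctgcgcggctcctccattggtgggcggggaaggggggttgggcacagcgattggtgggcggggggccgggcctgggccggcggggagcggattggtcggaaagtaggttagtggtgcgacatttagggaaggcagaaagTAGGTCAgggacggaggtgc
Cry1 holds the variant E-box, read as AACGTG on this strand, at -79 and a CACGTG at -60. Arntl holds no E-box of either kind in this window and has the ROR element TAGGTCA at base 31 after the start, which lies inside the transcribed part. An earlier Arntl start site in RefSeq gives a window without any of these motifs. Of the remaining windows, Per1 holds 1 CACGTG at -166 and Nr1d1 1 AACGTG at -28, and those of Clock, Npas2, Nr1d2 and Dbp hold none of the motifs.

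**Figure D2:**
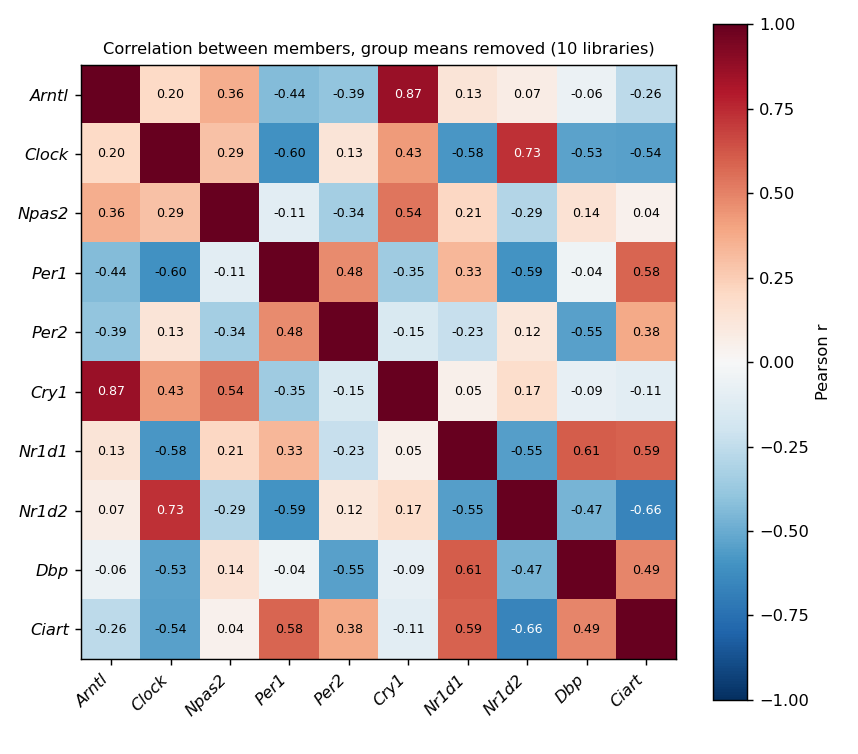
Pearson r between each pair of members over 10 libraries, computed on log2 CPM after the mean of each group was removed, with red for positive and blue for negative values. The Arntl and Cry1 cell, at 0.87, is the highest of the 45 pairs.

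The 45 pairs had r from -0.66 for Nr1d2 with Ciart to 0.87 for Arntl with Cry1, with 23 positive and 22 negative. Of these, 3 had an unadjusted exact permutation p under 0.05, and Arntl with Cry1 alone passed after adjustment. Clock and Per1 had r = -0.60 and Spearman's rho = -0.48 (exact permutation p = 0.0436 and 0.143, adjusted p = 0.543 and 0.765), and r was -0.55 without the 2 libraries farthest from the Clock median. Per1 and Nr1d2 had r = -0.59 and rho = -0.56 (exact permutation p = 0.0139 and 0.0883, adjusted p = 0.313 and 0.765), and r was -0.42 without the 2 libraries farthest from the Per1 median. Clock and Nr1d2 had r = 0.73 and rho = 0.28 (exact permutation p = 0.144 and 0.495, adjusted p = 0.543 and 0.858), and r was -0.27 without transgenic library 3. Of the 45 pairs, 12 changed sign without that library.

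Neither partner of BMAL1 passed the test. Clock, on chromosome 5 from 76209868 to 76304792, stood at 69.2, 78.5, 44.4, 81.2 and 82.5 CPM in transgenic libraries 1 to 5. Wild-type libraries held between 72.0 and 86.4 CPM. Transgenic library 3 was low and the other 4 lay within or near the wild-type range. The log2 fold change of Clock was -0.10 ± 0.15 (SE), with a 95% interval of -0.43 to 0.23, and 0.03 ± 0.08 (SE) without transgenic library 3. Clock has the longest exonic length of the members, 13727 bases, and that library was low in long transcripts. The part of exon length in the low value of Clock was not tested. Npas2, on chromosome 1 from 39193731 to 39363236, held 2.61, 4.19, 3.16, 2.74 and 4.12 CPM in transgenic libraries 1 to 5 and 2.88 to 3.44 CPM in wild-type libraries, so that 4 of 5 transgenic libraries lay outside the wild-type range, 2 above and 2 below, with a log2 fold change of 0.11 ± 0.18 (SE) at an adjusted p of 0.818 in edgeR.

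The Per genes gave values on both sides of 0 across alternatives for Per1 and above 0 in each for Per2. Per1, on chromosome 11 from 69095217 to 69109960, stood at 32.8, 33.2, 47.1, 30.5 and 36.4 CPM in transgenic libraries 1 to 5. In wild-type libraries 1 to 5 it was 42.8, 42.4, 26.6, 25.8 and 39.7 CPM. The wild-type libraries fell into a high set of 3 and a low set of 2, and the groups overlapped. For Per1 the log2 fold change was 0.02 ± 0.17 (SE), with a 95% interval of -0.35 to 0.40. Per2, on chromosome 1 from 91415982 to 91459324, had 5.45, 3.63, 4.37, 5.34 and 6.43 CPM in transgenic libraries 1 to 5. Wild-type libraries 1 to 5 had 5.20, 4.74, 3.27, 3.25 and 4.12 CPM, within the span of the transgenic values for 3 of 5 libraries. The log2 fold change of Per2 was 0.30 ± 0.19 (SE), with a 95% interval of -0.12 to 0.72 (edgeR adjusted p = 0.468).

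Per1 is known to be induced directly by glucocorticoids and by cAMP signalling. The mean log2 CPM over 14 genes with such induction, among them Fkbp5, Klf9, Mt2 and Crem, was 4.70, 4.69, 5.10, 4.98 and 4.98 in transgenic libraries 1 to 5. In wild-type libraries 1 to 5 that mean was 5.09, 5.26, 4.48, 4.49 and 4.74. Within the transgenic group Per1 and that mean were both highest in library 3, and within wild type both were lowest in libraries 3 and 4. Over both groups the mean was highest in wild-type library 2, while Per1 was highest in transgenic library 3. Transgenic library 4 had the lowest Per1 of its group beside a mean level with that of library 5. The part of these signals in the level of Per1 was not tested. None of the 14 genes passed edgeR's adjusted threshold, and 2 of them, Klf9 and Crem, had an unadjusted p under 0.05, where 18.1% of all genes tested did. Both lay below 0 in log2 fold change, at -0.31 and -0.28. The 14 genes had a median of -0.06 and ran from -0.37 for Fkbp5 to 0.92 for Mt2, with 6 above 0 and 8 below.

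Of the REV-ERB genes, Nr1d2 had the highest CPM of all members, while Nr1d1 lay below Clock and Per1 in mean CPM. Nr1d2, on chromosome 14 from 18204054 to 18239127, stood at 111, 104, 83.7, 117 and 99.1 CPM in transgenic libraries 1 to 5. Wild-type libraries were tightly set between 109 and 117 CPM. The log2 fold change of Nr1d2 was -0.14 ± 0.10 (SE), with a 95% interval of -0.36 to 0.09, the narrowest among the members. Nr1d1, on chromosome 11 from 98767932 to 98775333, had 27.0, 28.2, 48.5, 25.3 and 31.3 CPM in transgenic libraries 1 to 5. In wild-type libraries 1 to 5 it had 33.8, 23.1, 35.5, 31.8 and 47.9 CPM. The highest value of each group was in the library that stood apart by exon length. These libraries did so in opposite directions, with a rho of -0.244 in transgenic library 3 and 0.246 in wild-type library 5. The part of exon length in the level of Nr1d1 was not tested. Nr1d1 had a log2 fold change of -0.11 ± 0.21 (SE), at an edgeR adjusted p of 0.851, which was -0.31 without transgenic library 3 and 0.04 without wild-type library 5. Nr1d1 shares 263 exonic bases with Thra, the thyroid hormone receptor alpha gene on the opposite strand. As strand handling is not given, reads in that stretch cannot be assigned with certainty. Thra averaged 37.0 CPM in the transgenic group and 37.6 CPM in wild type.

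Dbp was the most variable member. It lies on chromosome 7 from 45705088 to 45710203 and had 3.56, 5.03, 8.42, 4.11 and 3.86 CPM in transgenic libraries 1 to 5. In wild-type libraries 1 to 5 it had 5.12, 2.71, 4.44, 7.22 and 4.04 CPM. Each group had 1 high library and the ranges overlapped almost wholly. Its log2 fold change was 0.08 ± 0.28 (SE), with a 95% interval of -0.53 to 0.68. Without transgenic library 3 the value was -0.19 ± 0.24 (SE). Dbp shares 539 exonic bases with Sphk2, a sphingosine kinase gene on the opposite strand, which averaged 9.56 CPM in the transgenic group and 8.87 CPM in wild type.

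**Figure D3:**
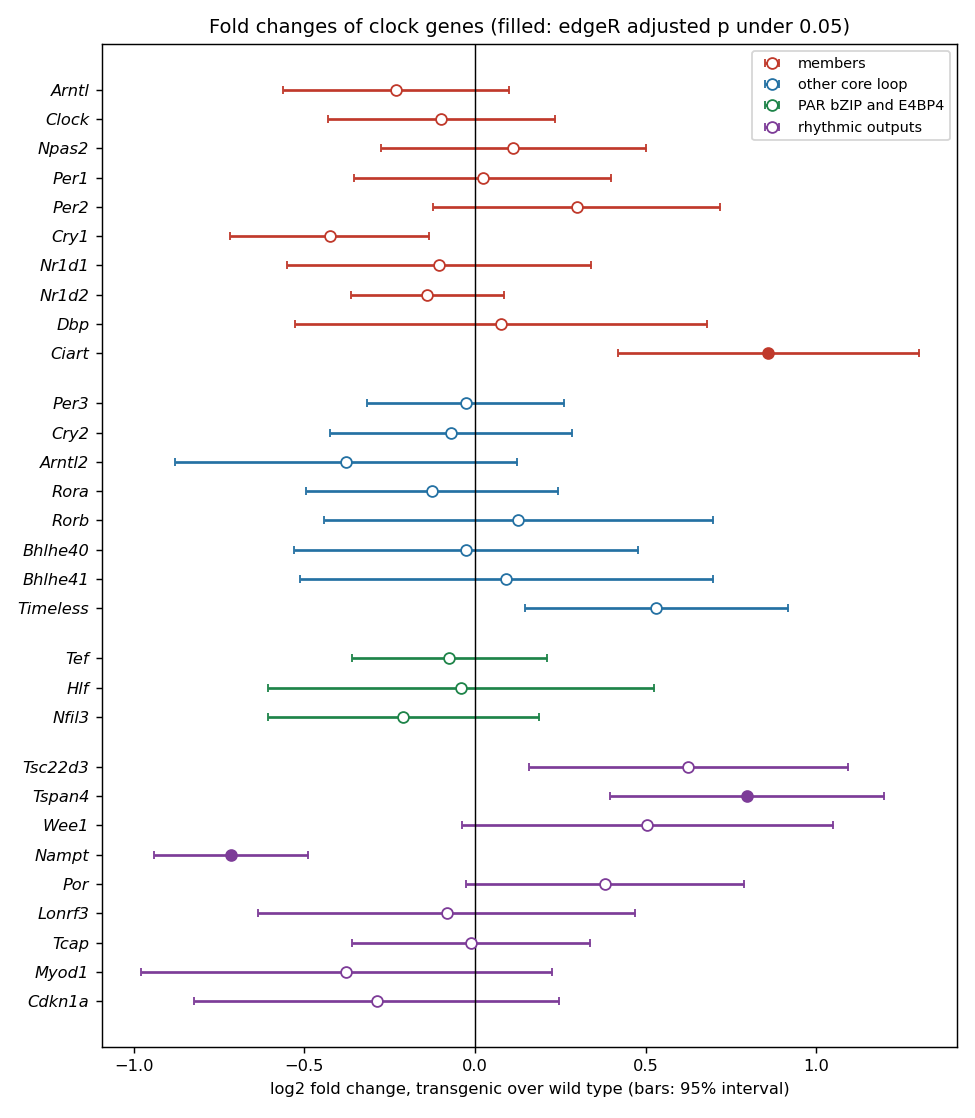
Log2 fold change of transgenic over wild type (horizontal axis) with its 95% interval for the members, the other genes of the core loop, the PAR bZIP and E4BP4 arm and rhythmic output genes, from top to bottom. Filled points passed an edgeR adjusted p of 0.05, which held for Ciart at 0.86, Tspan4 at 0.80 and Nampt at -0.72.

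Set per kilobase of exon, the members spanned a wide range of abundance. RPKM here is the TMM-scaled CPM divided by the exon length of GENCODE M21 in kilobases. Nr1d2 averaged 19.0 ± 2.32 RPKM in the transgenic group and 20.9 ± 0.644 RPKM in wild type (SD, n = 5 each). Nr1d1 followed at 10.4 ± 3.07 and 11.2 ± 2.90 RPKM, Per1 at 6.39 ± 1.17 and 6.30 ± 1.52 RPKM, and Clock at 5.18 ± 1.16 and 5.55 ± 0.431 RPKM, transgenic before wild type. In the wild-type libraries the order, with Cry2 and Per3 set among the members, went on with Cry2, Arntl, Cry1, Per3, Dbp, Per2, Npas2 and Ciart. There each gene from Nr1d1 to Per3 overlapped in range with the next in order, as did Per2 with Npas2 and Npas2 with Ciart. Neighbours within these stretches are therefore not resolved. The step from Nr1d2 to Nr1d1 was without overlap in wild type, that from Arntl to Cry1 in the transgenic group, and that from Dbp to Per2 in both groups. Ciart had the lowest mean of the 10 in wild type, at 0.577 ± 0.0722 RPKM, whereas in the transgenic group it averaged 1.05 ± 0.218 RPKM (SD, n = 5 each), above Per2 and Npas2.

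**Figure D4:**
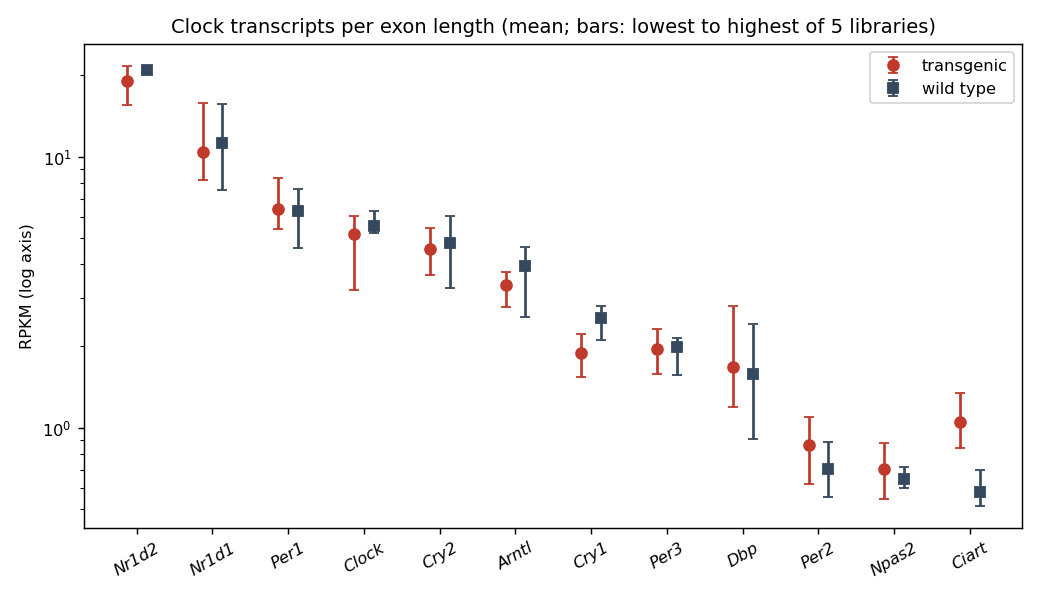
Mean RPKM (vertical log axis) of the members and of Cry2 and Per3 in the transgenic group (left point, red) and wild type (right point, dark), ordered by the wild-type mean, with bars from the lowest to the highest of 5 libraries. Nr1d2 is the highest at 19.0 and 20.9 RPKM, and Ciart is the gene whose bars do not meet.

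Ratios of counts within a library are free of scaling and of depth. The ratio of Ciart to Arntl ran from 0.0756 to 0.123 in transgenic libraries and from 0.0335 to 0.0816 in wild-type libraries, where wild-type library 1, low in Arntl, gave the highest value of its group. That of Cry1 to Arntl ran from 0.234 to 0.264 in transgenic libraries and from 0.254 to 0.363 in wild-type libraries. That of Nr1d1 to Arntl ran from 0.899 to 1.97 in transgenic libraries and from 0.796 to 1.75 in wild-type libraries. The groups overlapped in each of these ratios.

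Other genes of the loop gave no calls. Of 8 further core genes, Per3, Cry2, Arntl2, Rora, Rorb, Bhlhe40, Bhlhe41 and Timeless, none passed in edgeR or DESeq2 and 1, Timeless, had an unadjusted p under 0.05, near the share of 18.1% over all genes. Their median log2 fold change was -0.03. Timeless, a partner of replication forks whose clock role in mammals is debated, had 2.59 to 3.49 CPM in transgenic libraries and 1.52 to 2.28 CPM in wild-type libraries, with a log2 fold change of 0.53 ± 0.18 (SE) at an adjusted p of 0.117 in edgeR. Rora, an activator at the sites where REV-ERB proteins repress, had a value of -0.13 ± 0.17 (SE). Per3 and Cry2 had values of -0.03 ± 0.13 and -0.07 ± 0.16 (SE), and Arntl2, the paralogue of Arntl, one of -0.38 ± 0.23 (SE). Rorb, Bhlhe40 and Bhlhe41 had values of 0.13 ± 0.26, -0.03 ± 0.23 and 0.09 ± 0.28 (SE). Tef and Hlf, relatives of Dbp, and Nfil3, which encodes the D-box repressor E4BP4, had log2 fold changes of -0.08, -0.04 and -0.21, and none of the 3 passed.

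Of 16 tested kinases, ligases and cofactors that act on clock proteins, none passed in edgeR, 4 had an unadjusted p under 0.05, where 18.1% of all genes tested did, and the median log2 fold change was -0.09. The 4 were Csnk1e, a kinase of PER proteins, Gsk3b, Wdr5 and Cul4a, with values of -0.30, -0.41, -0.29 and -0.21 (edgeR adjusted p from 0.109 to 0.251). DESeq2 called Csnk1e, and without transgenic library 3 edgeR called Csnk1e and Wdr5 as lower.

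Nampt and Tspan4 were the calls among 9 rhythmic output genes, with 1 lower and 1 higher, where 5.33% of all genes tested were called. Nampt encodes the rate-limiting enzyme of NAD salvage, a target of the BMAL1 dimer whose product feeds back on the clock through sirtuins. It lies on chromosome 12 from 32819545 to 32853349 and had 72.9, 79.9, 64.3, 86.1 and 67.3 CPM in transgenic libraries 1 to 5. Wild-type libraries 1 to 5 had 126, 126, 117, 125 and 115 CPM, all above every transgenic library. Nampt fell with a log2 fold change of -0.72 ± 0.10 (SE) at an adjusted p of 0.00169 in edgeR. The level decreased by 39.1%, and the exact permutation p of 0.00794 was again the lower limit of that test. It kept its call without any 1 library, with an edgeR adjusted p of at most 0.00519, and missed it beside the hepatocyte covariate, where the log2 fold change was -0.68 ± 0.19 (SE) at an adjusted p of 0.157 in edgeR.

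Tspan4, a tetraspanin gene that cycles in many mouse organs, lies on chromosome 7 from 141475240 to 141493427. It had 5.17, 6.10, 9.18, 5.34 and 5.28 CPM in transgenic libraries 1 to 5. Wild-type libraries 1 to 5 had 3.94, 4.15, 3.50, 3.19 and 3.10 CPM, all below every transgenic library. It rose by a log2 fold change of 0.80 ± 0.19 (SE) at an adjusted p of 0.0235 in edgeR. Leaving out wild-type library 1, 3, 4 or 5 ended the call (adjusted p in edgeR from 0.0544 to 0.0792) as did the hepatocyte covariate, at 1.12 ± 0.30 (SE) at an adjusted p of 0.125 in edgeR. Tspan4 shares 292 exonic bases with Chid1 on the opposite strand, which had a log2 fold change of 0.09 ± 0.17 (SE). The exonic length of Tspan4 is 2178 bases, and its highest level was in transgenic library 3, which was low in long transcripts. Tspan4 kept its call without that library, and the part of exon length was not tested. The other 7 outputs, Tsc22d3, Wee1, Por, Lonrf3, Tcap, Myod1 and Cdkn1a, did not pass, with values from -0.38 for Myod1 to 0.63 for Tsc22d3. Tsc22d3 had an edgeR adjusted p of 0.129 and was called when transgenic libraries 1 and 2 were left out.

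Over the 5 further lists together, 50 genes were tested and 2 passed, where 5.33% of all genes did. Their median log2 fold change was -0.06, with 18 values above 0 and 32 below.

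The genes most like a member were sought among 8734 genes with a mean of at least 5 CPM, by Pearson r of group-centred log2 CPM over the 10 libraries. Arntl was most like Lonrf1, Bcl2l11 and Ociad2, with r of 0.90, 0.88 and 0.87. Dbp was most like Ndufa13, Prdx3 and Tnfaip2, with r of 0.97, 0.97 and 0.96, and Ciart most like Prpsap1, Fgf1 and Xirp1, with r of 0.98, 0.97 and 0.95. These are the highest of many values and describe the 10 libraries. Dbp and Ciart were both highest in transgenic library 3, and the search was not repeated without that library. Of the 9 genes, Ndufa13 passed edgeR's threshold, with a log2 fold change of -0.61 ± 0.12 (SE) at an adjusted p of 0.0113.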

How the data were processed

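The deposited table holds the raw count of each gene in 10 RNA-seq libraries of mouse muscle, beside the authors' mean signal, log2 fold change and its standard error, Wald score and p-values. The authors used DESeq2 1.10, HTSeq 0.6.1, SAMtools 1.2, Bowtie2 2.2.6 and TopHat2 2.1 on GRCm38.p4, per the submitters' processing notes. The strand setting was not given in the sources used here, nor was the gene model release.

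Genes passing filterByExpr were tested on TMM-scaled counts with glmQLFit and glmQLFTest of edgeR 4.0.16 in R 4.3.3, with no covariate, and p-values were adjusted by Benjamini-Hochberg over 13338 genes. Standard errors and 95% intervals were taken from the fold change and its F statistic. log2 CPM used a prior count of 2. Coordinates and exon lengths come from GENCODE M21 (99.7% of IDs matched), and start windows from RefSeq, GRCm38.p6. Alternatives covered scaling, filters, DESeq2 1.42.0, the authors' p-values, thresholds, left-out libraries and a hepatocyte covariate.

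The members and lists were chosen with earlier results of these data known. Named were all members, the further core loop and PAR bZIP genes, any called gene of the other lists and the 3 genes most like Arntl, Dbp and Ciart. Genes of the kinase and steroid lists with an unadjusted p under 0.05 were named after their values were seen. Another gene of the core loop, in addition to those named, is not reported here. The series describes 5 mice per group, and in all 20 comparisons of libraries within a group the counts differed by more than sampling noise, with a chi-square of 17.5 or more for each degree of freedom.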

Additional observations from a re-analysis of the deposited data

Results flagged for a closer look

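Dixon's test for a library far from the other 4 of its group was run on log2 CPM for 23 clock genes in both groups, 46 sets of values, and chance alone flags about 1 in 20. It marked 4. Clock stood at 44.4 CPM in transgenic library 3, against 69.2 to 82.5 CPM in the other transgenic libraries, with a gap of 0.717 of the range. Tspan4 stood at 9.18 CPM in the same library, against 5.17 to 6.10 CPM, with a gap of 0.713 of the range. Per3 stood at 15.1 CPM in wild-type library 2, against 19.6 to 20.6 CPM in the other wild-type libraries, with a gap of 0.830 of the range. Hlf stood at 5.63 CPM in wild-type library 5, against 2.91 to 3.51 CPM, with a gap of 0.718 of the range. Transgenic library 3 and wild-type library 5 are those whose deviations depended most on exon length, and the part of this in the marked values was not tested.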

How the results depend on the processing

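Under the alternatives for scaling, filter and dispersion, DESeq2 and the authors' p-values, the count of called members was 1 and the gene was Ciart. It was 2 at an adjusted p under 0.1, with Cry1, and 0 at 0.01, beside the hepatocyte covariate, without transgenic libraries 4 and 5, and when transgenic library 3 was left out along with wild-type library 5, and it ran from 0 to 1 with single libraries left out. The wider lists had 1 call at 0.01, 0 beside the covariate and 1 to 4 with single libraries left out. All genes called numbered 1115 at 0.1, 252 at 0.01, 464 with at least 10 counts in every library, 1158 by the authors' p-values, 90 beside the covariate and 450 to 1116 with single libraries left out, the last without transgenic library 3. DESeq2 called 1054, of which 70.1% were higher, against 80.3% of 711 in edgeR. Correlated pairs of members past the adjusted threshold were 0 with RLE and 0 to 2 with single libraries left out. Members that were never called changed sign in places. Clock was 0.010 without transgenic library 3 and wild-type library 5, and -0.16 to 0.029 with single libraries left out. Npas2 was -0.16 beside the covariate. Per1 was -0.0035 without rows that resemble ribosomal RNA, -0.049 without transgenic library 3 and wild-type library 5, and -0.10 to 0.076 with single libraries left out. Nr1d1 was 0.0035 without transgenic libraries 4 and 5, 0.015 when transgenic libraries 1 and 2 were left out, and -0.31 to 0.041 with single libraries left out. Dbp was -0.24 without transgenic library 3 and wild-type library 5, and -0.19 to 0.26 with single libraries left out. The cause was not tested for any of these. Leaving out transgenic library 3 and wild-type library 5, and the block below, were chosen after seeing the data.

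The labels share no replicate number between groups, but the column names do. Libraries of the same number deviated together with r over 0.1 in 3 of 5 pairs (from -0.036 to 0.17, median 0.14). Other pairings had r from -0.25 to 0.28 with a median of -0.015. Of the 5 transgenic libraries, 1 correlated best with its own number. These few pairs cannot show whether libraries of the same number share anything beyond it. With the number as a replicate block, 0 members, 2 wider genes and 672 of all genes were called, and Ciart had an edgeR adjusted p of 0.0661. Depth limits Ciart, Npas2 and Per2, which rest on at most 113 reads in any library.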
